A study of Penicillium oxalicum with 9 samples.

Results

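The chitin and glucan cell wall genes of Penicillium oxalicum are the genes whose deposited descriptions name an enzyme that makes, joins, modifies or cuts chitin, beta-1,3-glucan or alpha-1,3-glucan. They were found by searching both deposited description columns, from KEGG orthology and from the nr protein database, for fixed words such as chitinase, chitin synthase and glucanosyltransferase. The search found 92 of the 9907 genes in the table, after 2 genes whose text held the word regulator were left out. A description is an automated label and not a tested function, and the word search also took in a few enzymes of other sugars, which are kept apart as a class of their own. For PDE_03292, PDE_06124, PDE_06567 and PDE_07894, among others, only the KEGG text names the enzyme, while the nr text names a binding domain.

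Transcripts were measured in mycelia, the thread-like cells of this filamentous fungus, in 3 libraries each of a strain with clrB deleted, a strain with rcoA deleted and the wild type 114-2. ClrB switches on cellulase genes as a transcription factor; RcoA belongs to the Tup1 corepressors. Spores of each strain grew for 22 h at 30 °C with 2% glucose, after which mycelia were washed and kept for 24 h on a salt medium holding wheat bran and cellulose at 1% each. The labels give no other allele or marker for the deletion strains, nor whether each was 1 transformant, nor whether replicate libraries derive from separate cultures. A p-value therefore measures only how these libraries vary, and that variation may be technical. In such bulk RNA, fewer cells of a type and less RNA per cell cannot be told apart.

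The wall of a filamentous fungus is built around chitin and beta-1,3-glucan, which membrane-bound synthases spin out of the cell from sugar nucleotides, and alpha-1,3-glucan forms an outer layer in many species. Beta-1,3-glucanosyltransferases then lengthen the beta-1,3-glucan chains and chitin glucanosyltransferases link them to chitin, as worked out in Saccharomyces cerevisiae and Aspergillus fumigatus. Chitinases and glucanases cut the same polymers, during growth and branching, in the autolysis of old mycelium and in the use of foreign fungal material as food.

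Values are FPKM, fragments scaled by transcript length and library total, as the authors computed them; levels of different genes are comparable only as far as length scaling suits tag libraries. The gene described as ClrB (PDE_05999) had at most 0.11 FPKM in the clrB deletion, 57.7 to 69.8 in the rcoA deletion and 163 to 200 in wild type. The TUP1 family gene PDE_01024 had 65.9 to 68.4 FPKM in the clrB deletion, 2.08 to 3.38 in the rcoA deletion and 65.5 to 70.7 in wild type. Replicate 2 of the clrB deletion stood apart: its log2 values correlated at 0.946 and 0.957 with the other replicates of the strain, against 0.984 to 0.993 for every other pair within a strain. Results given without it rest on replicates 1 and 3 of that strain alone. It was singled out from these same values, so adjusted p-values without it may be too small.

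The cell wall genes spanned a wide range of levels. The highest mean over the 9 libraries was 4623 FPKM, for the Chitinase II gene PDE_08122, and 2 genes were listed at 0 in every library. A mean of at least 1 FPKM was required for a test, which 80 of the 92 genes reached. Changes were tested with limma on log2(FPKM + 1) over all genes of the table, and a gene was called when its Benjamini-Hochberg adjusted p over the 9097 genes tested was under 0.05. A log2 change on this scale understates the change of low genes.

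In the clrB deletion against wild type, 14 of the 80 tested cell wall genes rose (17.5%) and 13 fell (16.2%), where 13.5% of all tested genes rose and 8.32% fell. In the rcoA deletion against wild type, 16 rose (20%) and 36 fell (45%), where 30.4% of all tested genes rose and 34.1% fell. With the deletions set against each other, 33 were higher in the clrB deletion than in the rcoA deletion (41.2%) and 20 were lower (25%), where 35.2% and 24.9% of all tested genes were. The median log2 change of the 80 genes was 0.01 in the clrB deletion, and -0.41 with rcoA deleted, against 0.08 and -0.04 for all tested genes. Both deletions were compared with the same 3 wild type libraries, so the comparison of the deletions with each other is also the test of whether their effects differ. The counts for the clrB deletion depended on single libraries: without its replicate 2, 23 rose and 22 fell, where 24.2% and 13.4% of all genes did, and without its replicate 3, 5 rose and 6 fell (4.28% and 3.66% of all genes). Leaving out wild type replicate 1 gave 5 that rose and 7 that fell (5.40% and 4.21% of all genes). Leaving out wild type replicate 2 gave 10 and 8 (6.94% and 4.90%), and leaving out replicate 3 gave 9 and 8 (8.11% and 6.05%). Without clrB deletion replicate 2, which also enters the shared spread, the rcoA deletion had 17 genes that rose and 43 that fell (33.0% and 37.3% of all genes), and between the deletions 39 were higher and 21 lower with clrB deleted (37.2% and 25.1% of all genes). The balance of calls depended on scaling: of all genes called in the clrB deletion against wild type 61.9% rose, against 46.6% with median of ratios scaling and 49.2% with quantile normalization, and the 14 and 13 cell wall genes became 11 and 15, and 12 and 15. Of all genes called between the deletions 58.6% were higher in the clrB deletion, against 45.3% with quantile normalization.

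**Figure D1:**
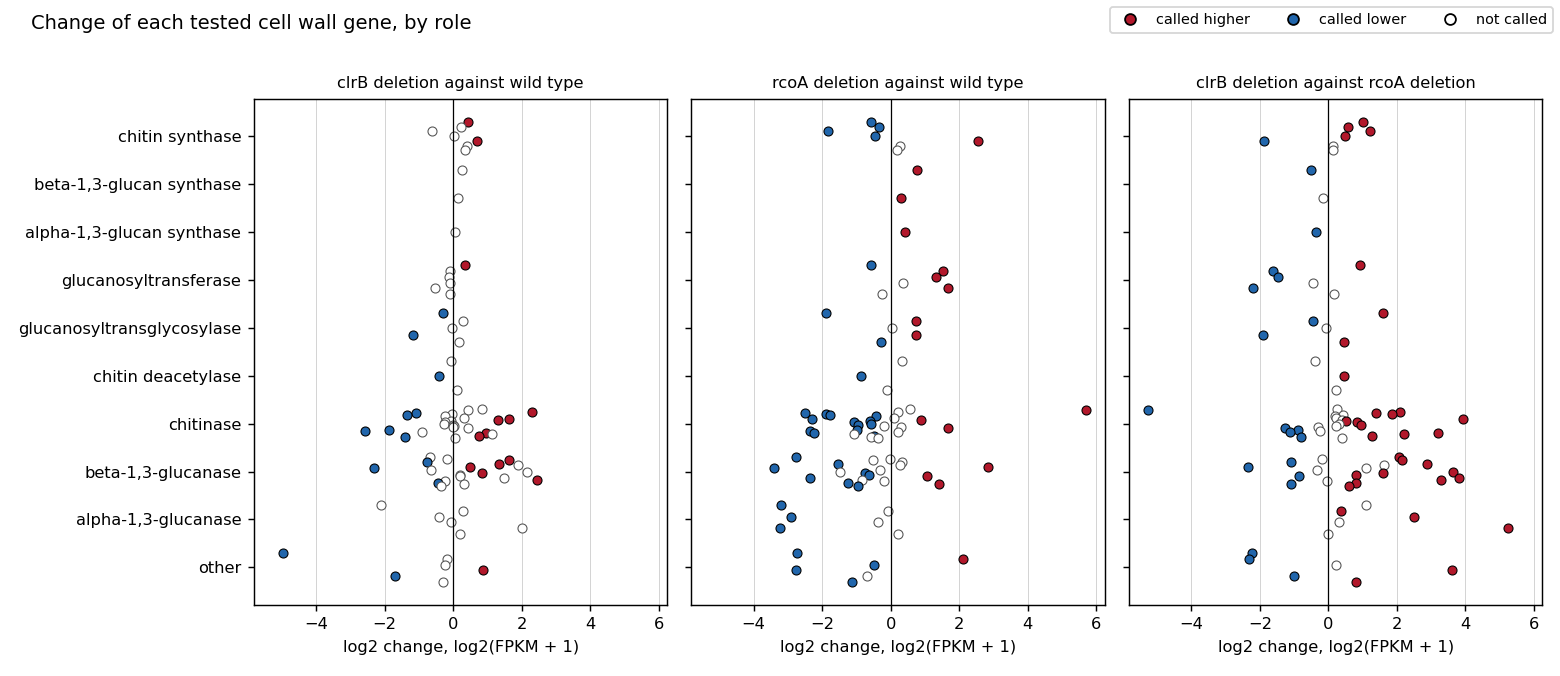
Log2 change (x axis, on log2(FPKM + 1)) of each of the 80 tested cell wall genes, by role, in 3 panels: clrB deletion over wild type, rcoA deletion over wild type, and clrB deletion over rcoA deletion. Each point is 1 gene, red where it was called higher, blue where it was called lower and white where it was not called. The rightmost point of the middle panel is the chitinase PDE_01573 at 5.70, and the leftmost point of the left panel is the galactanase PDE_01468 at -4.98.

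The synthases, which make the polymers, moved in both directions in the rcoA deletion. Of 10 tested synthase genes 4 rose and 4 fell there (all tested genes, 30.4% and 34.1%), and in the clrB deletion 2 rose, by under 2-fold, and 8 were not called (all tested genes, 13.5% rose). The largest rise was that of the chitin synthase PDE_08046, which had 75.1, 70.6 and 51.8 FPKM in the rcoA deletion, against wild type values of 9.42, 11.1 and 10.3. All 3 rcoA deletion libraries lay above all wild type libraries, a 6.41-fold difference of means (log2 change 2.55, SE 0.18, limma adjusted p = 3.3e-06). The same gene had 20.4, 13.3 and 18.3 FPKM in the clrB deletion, 1.69-fold above wild type (log2 change 0.69, SE 0.18, limma adjusted p = 0.0269). That smaller rise missed the threshold without clrB deletion replicate 1 or 3 or without any of the wild type libraries, at adjusted p of 0.0585 to 0.0984. The level in the clrB deletion was 3.79-fold below that in the rcoA deletion (limma adjusted p = 2.53e-05).

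Another chitin synthase went the other way in the rcoA deletion. PDE_05710 had 18.4, 12.2 and 8.46 FPKM in the rcoA deletion, against wild type values of 40.0, 55.6 and 45.7. The groups did not overlap, and the mean was 3.62-fold lower (log2 change -1.83, SE 0.30, limma adjusted p = 0.000634). Its level was 21.2, 44.3 and 29.1 FPKM in the clrB deletion, with replicate 2 inside the wild type range. The change there gave a limma adjusted p of 0.17, and the gene was called lower without replicate 2 (log2 change -0.88, adjusted p = 0.0318).

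Another 3 chitin synthases fell by smaller amounts in the rcoA deletion. PDE_02083 averaged 71.5 ± 3.89 FPKM in the rcoA deletion and 91.6 ± 4.75 in wild type (SD, n = 3 each), 1.28-fold lower (limma adjusted p = 0.00508). PDE_06421 was 1.39-fold lower and PDE_01856 1.51-fold lower, with limma adjusted p of 0.0052 and 0.00349. PDE_01856 was also called in the clrB deletion, where it averaged 102 ± 10.6 FPKM, against 75.5 ± 9.82 in wild type (SD, n = 3 each), with a limma adjusted p of 0.0431. That call was lost in 10 of 18 alternative settings, among them leaving out any of 6 single libraries, at adjusted p of 0.0566 to 0.16. The neighbouring identifiers PDE_08661 and PDE_08662, both chitin synthases, were called in no comparison: PDE_08662 had 80.2 to 96.5 FPKM in the clrB deletion, 72.3 to 81.6 in the rcoA deletion and 55.3 to 83.1 in wild type. Without wild type replicate 2, PDE_08662 was called higher in the clrB deletion at an adjusted p of 0.0495.

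**Figure D2:**
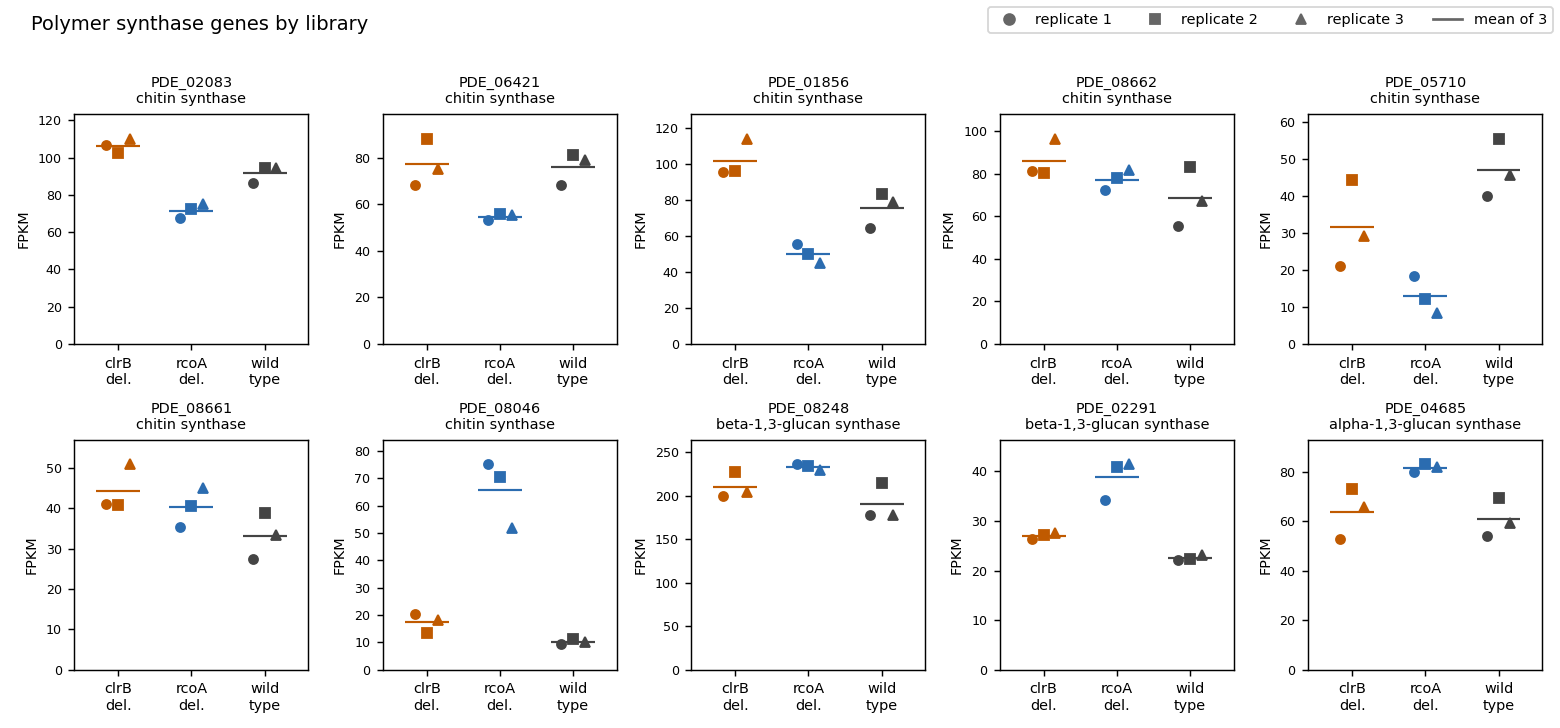
FPKM (y axis, from 0) of the 10 tested synthase genes in each library of the clrB deletion, the rcoA deletion and wild type, with 1 symbol per replicate number and a line at the mean of 3. Of the 3 strains, the rcoA deletion is highest for PDE_08046 and lowest for PDE_05710.

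All 3 tested glucan synthase genes rose in the rcoA deletion, while the fourth, the alpha-1,3-glucan synthase PDE_03103, was under the filter. Of all tested genes 30.4% rose there. PDE_02291, a beta-1,3-glucan synthase, had 34.2, 41.0 and 41.4 FPKM in the rcoA deletion, against wild type values of 22.1, 22.4 and 23.1, and its mean was 1.72-fold higher in the deletion (log2 change 0.75, SE 0.09, limma adjusted p = 9.84e-05). The other beta-1,3-glucan synthase, PDE_08248, stood higher, at 229 to 236 FPKM in the rcoA deletion and 177 to 214 in wild type, and rose 1.23-fold (limma adjusted p = 0.0313). The alpha-1,3-glucan synthase PDE_04685 rose 1.34-fold, with 80.0 to 83.1 FPKM in the rcoA deletion and 54.3 to 69.5 in wild type (limma adjusted p = 0.0197). These last calls were not firm. PDE_08248 missed the threshold without any of the rcoA deletion libraries or without wild type replicate 1 or 3, at adjusted p of 0.0577 to 0.101. PDE_04685 missed it without rcoA deletion replicate 2 or wild type replicate 1 or 3, at 0.056 to 0.071. By limma 0 of these 3 genes were called in the clrB deletion, with adjusted p of 0.0798 for PDE_02291, 0.33 for PDE_08248 and 0.768 for PDE_04685, and 1 of them had an unadjusted p under 0.05.

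The glucanosyltransferase class, which extends and branches the glucan or joins it to chitin, had the highest summed level of all classes in the rcoA deletion. Of its 6 tested genes 3 rose and 1 fell in the rcoA deletion, and 1 rose in the clrB deletion, where 30.4%, 34.1% and 13.5% of all tested genes did. Summed over the class, the level was 2057 to 2622 FPKM in the clrB deletion and 5257 to 5349 in the rcoA deletion, against 2332 to 2646 in wild type. PDE_06441, a beta-1,3-glucanosyltransferase, had 2760, 2644 and 2498 FPKM in the rcoA deletion, against wild type values of 933, 766 and 771, and its mean was 3.20-fold higher in the deletion (log2 change 1.68, SE 0.17, limma adjusted p = 3.12e-05). Its second KEGG description is serine palmitoyltransferase, an enzyme of sphingolipid synthesis, so its label is mixed. It had 502, 731 and 504 FPKM in the clrB deletion, below all wild type libraries, and was not called (limma adjusted p = 0.0564). Without clrB deletion replicate 2 it was called lower (log2 change -0.70, adjusted p = 0.00343).

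The class moved both ways, as PDE_01690 and PDE_00401 show. Both are described as chitin glucanosyltransferases, the type that joins chitin to glucan in Saccharomyces cerevisiae. PDE_01690 had 808, 911 and 1061 FPKM in the rcoA deletion, against wild type values of 382, 336 and 379, and its mean was 2.53-fold higher in the deletion (limma adjusted p = 1.66e-05). PDE_00401 had 219, 211 and 211 FPKM in the rcoA deletion, against wild type values of 320, 331 and 318, and its mean was 1.51-fold lower in the deletion (limma adjusted p = 0.000216). The level of PDE_00401 was 411, 411 and 407 FPKM in the clrB deletion, 1.27-fold above wild type (limma adjusted p = 0.0202), and PDE_01690 had 333 to 337 FPKM there and was not called. The rise of PDE_00401 was lost without clrB deletion replicate 3 or wild type replicate 1 or 3, at adjusted p of 0.0583 to 0.0767. The chitin glucanosyltransferase with the highest mean, PDE_05263, averaged 705 ± 189 FPKM in the clrB deletion, 931 ± 22.7 in the rcoA deletion and 734 ± 33.5 in wild type (SD, n = 3 each). It was called in no comparison over the 9 libraries, and without clrB deletion replicate 2 it was called higher in the rcoA deletion than in wild type (adjusted p = 0.00892) and lower in the clrB deletion than in the rcoA deletion (adjusted p = 0.000598). PDE_00615, also described as a beta-1,3-glucanosyltransferase, was 2.85-fold higher in the rcoA deletion, at 528 to 617 FPKM against 162 to 225 in wild type (limma adjusted p = 1.68e-05).

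The 5 genes described as beta-1,3-glucanosyltransglycosylases also moved both ways, with 2 higher and 2 lower in the rcoA deletion (all tested genes, 30.4% and 34.1%) and 0 higher and 2 lower with clrB deleted (all tested genes, 13.5% and 8.32%). PDE_06951 moved in opposite directions in the deletions. It had 66.8, 75.9 and 56.7 FPKM in the clrB deletion, against 158, 146 and 143 in wild type, 2.24-fold lower (log2 change -1.16, SE 0.11, limma adjusted p = 0.000332). The level in the rcoA deletion was 262, 248 and 243 FPKM, 1.68-fold above wild type (limma adjusted p = 0.000382). The difference between the deletions was 3.77-fold (limma adjusted p = 1.49e-06), and no 2 strains overlapped. PDE_03452 was 3.80-fold lower in the rcoA deletion, with 22.7 to 25.2 FPKM against 89.3 to 97.0 in wild type (limma adjusted p = 1.73e-07). Its call in the clrB deletion, 1.23-fold lower (limma adjusted p = 0.0289), was lost on leaving out any of 6 libraries (clrB deletion replicate 1 or 3, rcoA deletion replicate 2, or any of wild type), at 0.0501 to 0.105. The most abundant of the 5, PDE_04618, was 1.64-fold higher in the rcoA deletion, with 1002, 1081 and 1080 FPKM against 709, 524 and 691 in wild type (limma adjusted p = 0.0033).

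**Figure D3:**
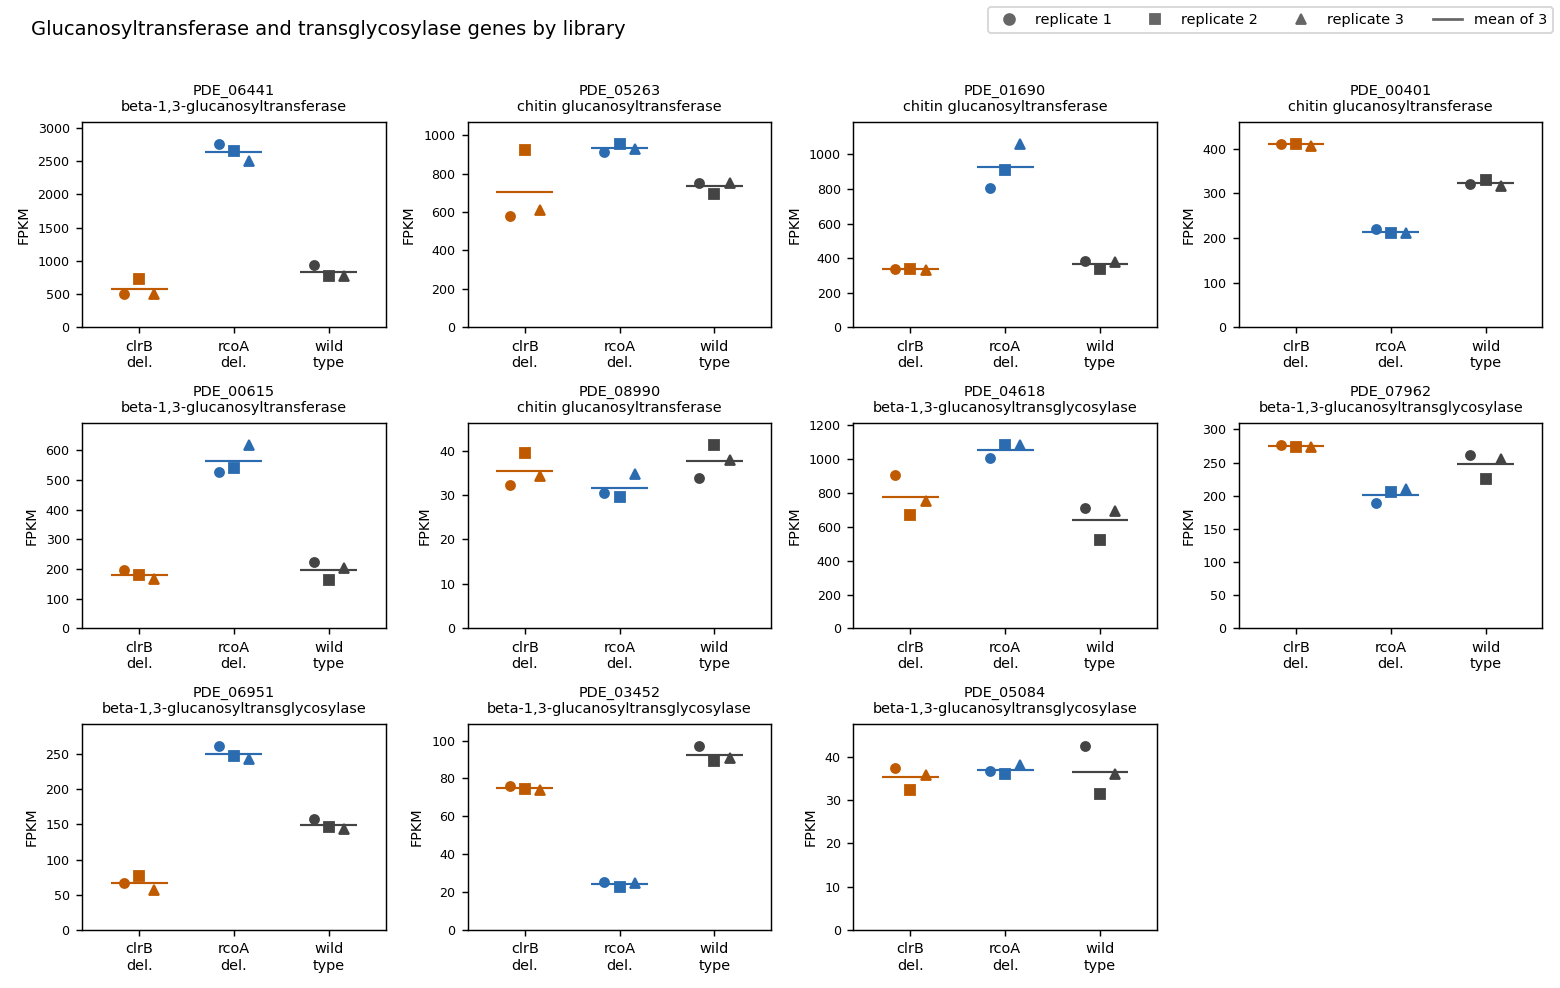
FPKM (y axis, from 0) of the tested glucanosyltransferase and glucanosyltransglycosylase genes in each library, laid out as for the synthases. PDE_06441, PDE_01690 and PDE_00615 stand above the other strains in the rcoA deletion, whereas PDE_00401 and PDE_03452 stand below them there.

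The precursor of chitin is made from fructose 6-phosphate, and 3 enzymes of that path were found by their descriptions outside the 92 genes. All 3 rose in the rcoA deletion and 1 rose in the clrB deletion, where 30.4% and 13.5% of all tested genes rose. A second, PDE_03396, was called higher in the clrB deletion once its replicate 2 was left out (adjusted p = 0.00758), where 24.2% of all genes were. PDE_03396, the glucosamine-phosphate N-acetyltransferase, had 111, 108 and 105 FPKM in the rcoA deletion, against wild type values of 45.5, 39.8 and 41.8, and its mean was 2.55-fold higher in the deletion (limma adjusted p = 2.05e-05). PDE_02624, the phosphoacetylglucosamine mutase, was 2.08-fold higher, with 60.5 to 66.3 FPKM in the rcoA deletion against 27.8 to 31.8 in wild type (limma adjusted p = 6.83e-05). PDE_02490, the aminotransferase at the entry of the path, was 1.39-fold higher (limma adjusted p = 0.00505). PDE_02624 was also 1.35-fold above wild type in the clrB deletion (limma adjusted p = 0.0384), a call lost without any library other than clrB deletion replicate 2, at adjusted p of 0.051 to 0.12. All 3 genes were called lower in the clrB deletion than in the rcoA deletion, where 24.9% of all tested genes were.

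Chitinases were the largest class, with 29 genes of which 25 were tested. In the rcoA deletion 13 fell and 3 rose (52% and 12%, where 34.1% and 30.4% of all tested genes did), and in the clrB deletion 5 fell and 5 rose (20% each, where 8.32% and 13.5% did). Leaving out clrB deletion replicate 2 gave 8 that fell and 9 that rose in the clrB deletion (32% and 36%, where 13.4% and 24.2% of all genes did), and 16 that fell and 3 that rose with rcoA deleted (37.3% and 33.0% of all genes). Summed over the class, the level was 4951 to 15547 FPKM in the clrB deletion and 3761 to 4332 in the rcoA deletion, against 4984 to 7422 in wild type. Without PDE_08122 the sum lay between 2450 and 2882 FPKM in all 9 libraries. In the rcoA deletion that sum includes the chitinase PDE_01573 at 774, 919 and 872 FPKM, against 14.8, 12.6 and 19.6 in wild type. The even sum therefore does not mean that the other chitinases were unchanged there.

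PDE_08122, described as Chitinase II, was the most abundant of the 92 genes by mean FPKM. It had 12664, 2266 and 12038 FPKM in the clrB deletion, 1260, 1430 and 1882 with rcoA deleted, and 2349, 2857 and 4864 in wild type. Replicates 1 and 3 of the clrB deletion lay above every other library, while replicate 2 lay below all wild type libraries. It was called in neither comparison with wild type, with limma adjusted p of 0.201 in the clrB deletion, and 0.142 with rcoA deleted. It was 5.90-fold higher in the clrB deletion than in the rcoA deletion (log2 change 2.22, SE 0.61, limma adjusted p = 0.0112). Without clrB deletion replicate 2 it was called higher in the clrB deletion than in wild type (log2 change 1.95, adjusted p = 0.00136) and lower in the rcoA deletion than in wild type (log2 change -1.09, adjusted p = 0.00503).

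On the log2(FPKM + 1) scale, the largest change of any tested cell wall gene against wild type was that of another chitinase. That order rests on the pseudocount: with a pseudocount of 0.1 the change of the galactanase PDE_01468 in the clrB deletion was -7.51, beyond the 5.78 of this chitinase, PDE_01573, in the rcoA deletion. PDE_01573 had 774, 919 and 872 FPKM in the rcoA deletion, against wild type values of 14.8, 12.6 and 19.6, and its mean was 54.6-fold higher in the deletion (log2 change 5.70, SE 0.18, limma adjusted p = 4.5e-08). Its 23.9, 16.6 and 23.5 FPKM in the clrB deletion were not called different (limma adjusted p = 0.117), and were called higher without replicate 2 (log2 change 0.59, adjusted p = 0.0193). PDE_06556, whose KEGG text names a chitinase beside 2 unrelated proteins, was 3.26-fold higher in the rcoA deletion, with 80.6 to 89.8 FPKM against 22.3 to 32.1 in wild type (limma adjusted p = 7.36e-06). Once clrB deletion replicate 2 was left out it was also called higher in the clrB deletion (log2 change 0.45, adjusted p = 0.0394).

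Most of the called chitinases were lower in the rcoA deletion. PDE_06419, the second most abundant chitinase, had 503, 506 and 505 FPKM in the rcoA deletion, against wild type values of 959, 962 and 1039, and its mean was 1.96-fold lower in the deletion (limma adjusted p = 0.000141). Its range of 877 to 1150 FPKM in the clrB deletion covered the wild type values. PDE_03055 was 3.78-fold lower in the rcoA deletion and PDE_02637 6.03-fold lower, with limma adjusted p of 2.75e-05 and 0.000104. PDE_03055 was called lower in the clrB deletion as well when its replicate 2 was left out (log2 change -0.30, adjusted p = 0.0366). PDE_02637, whose KEGG text also names the flocculation protein FLO11, was called lower in the clrB deletion over the 9 libraries. It had 24.03, 61.53 and 24.35 FPKM there, against 76.65, 77.27 and 62.25 in wild type. That call was lost without any library other than clrB deletion replicate 2, at limma adjusted p of 0.0512 to 0.128. PDE_07894 was listed at 0.54, 0.00 and 0.12 FPKM in the rcoA deletion, against wild type values of 3.85, 5.13 and 5.24, so that no fold is given (log2 change -2.25, SE 0.27, limma adjusted p = 8.78e-05). In the clrB deletion PDE_07894 went the other way, with 11.80, 13.35 and 6.27 FPKM, and was called higher than wild type. That rise was lost in 12 of 18 alternative settings, among them leaving out any wild type library, at limma adjusted p of 0.0683 to 0.122.

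A pair of chitinases with consecutive identifiers fell in both deletions. PDE_06567 had 3.26, 7.07 and 3.30 FPKM in the clrB deletion and 5.55, 5.27 and 4.88 in the rcoA deletion, against wild type values of 33.0, 34.0 and 25.9. It was 6.81-fold lower in the clrB deletion and 5.91-fold lower in the rcoA deletion, with limma adjusted p of 0.000223 and 2.78e-05. PDE_06566 had 6.51, 12.2 and 7.58 FPKM in the clrB deletion and 15.4, 16.6 and 17.0 in the rcoA deletion, against wild type values of 30.7, 40.4 and 30.1. Its level was 3.85-fold lower in the clrB deletion and 2.06-fold lower in the rcoA deletion, and these effects differed (clrB deletion against rcoA deletion, log2 change -0.87, SE 0.20, limma adjusted p = 0.00472). PDE_09532 was 2.62-fold lower in the clrB deletion, with 26.4, 42.5 and 20.9 FPKM against 94.3, 81.1 and 59.8 in wild type (limma adjusted p = 0.00866), and without clrB deletion replicate 2 it was called lower in the rcoA deletion too (log2 change -0.59, adjusted p = 0.0196). PDE_03698 was 2.56-fold lower in the clrB deletion and 3.58-fold lower in the rcoA deletion, with limma adjusted p of 0.00263 and 4.71e-05.

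Among the chitinases that rose in the clrB deletion, PDE_01779 had 40.4, 13.5 and 36.8 FPKM, against 4.42, 5.25 and 4.69 in wild type, 6.32-fold higher (log2 change 2.29, SE 0.33, limma adjusted p = 0.00274). Its 5.44 to 5.88 FPKM in the rcoA deletion were not called different from wild type. PDE_04326 had 47.8, 14.9 and 42.4 FPKM in the clrB deletion and 1.06, 0.78 and 1.64 in the rcoA deletion, against wild type values of 7.68, 11.6 and 9.52. It was 3.66-fold higher in the clrB deletion (limma adjusted p = 0.0193) and 8.26-fold lower in the rcoA deletion (limma adjusted p = 0.000648), and no 2 strains overlapped. The rise was lost without clrB deletion replicate 1 or 3 or wild type replicate 1 or 3, at adjusted p of 0.051 to 0.0778. PDE_04898 was 2.62-fold higher in the clrB deletion and 1.85-fold higher in the rcoA deletion, with limma adjusted p of 0.0139 and 0.0196. It was lost in the clrB deletion without its replicate 3 or wild type replicate 1, and in the rcoA deletion without its replicate 1 or wild type replicate 1 or 2, at adjusted p of 0.053 to 0.0585.

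Chitin deacetylases turn chitin into chitosan by removing acetyl groups. Of the 3 genes, PDE_07861 fell in both deletions, with 13.8 to 17.2 FPKM in the clrB deletion and 10.3 to 11.5 in the rcoA deletion, against 19.0 to 22.5 in wild type. It was 1.35-fold lower in the clrB deletion and 1.91-fold lower in the rcoA deletion, with limma adjusted p of 0.0269 and 0.00011. The smaller fall was lost without clrB deletion replicate 3 or wild type replicate 1 or 3, at adjusted p of 0.0811 to 0.0893. The most abundant deacetylase gene, PDE_09389, had 22.1 to 29.7 FPKM over all 9 libraries and was called in no comparison with wild type.

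The alpha-1,3-glucanases, also known as mutanases, cut alpha-1,3-glucan. Of 6 tested genes 3 fell and 0 rose in the rcoA deletion (all tested genes, 34.1% and 30.4%), and 0 were called in the clrB deletion by limma over the 9 libraries, where 3 had an unadjusted p under 0.05. Leaving out clrB deletion replicate 2 gave 2 that rose and 2 that fell in the clrB deletion, where 24.2% and 13.4% of all genes did. PDE_03292, the most abundant, had 296, 245 and 182 FPKM in the rcoA deletion, against wild type values of 2373, 2040 and 2190, and its mean was 9.15-fold lower in the deletion (log2 change -3.21, SE 0.67, limma adjusted p = 0.00247). Its level was 228, 1971 and 295 FPKM in the clrB deletion. Replicates 1 and 3 lay in the range of the rcoA deletion, replicate 2 lay just under the wild type libraries, and the gene was not called (limma adjusted p = 0.0527). Without replicate 2 the clrB deletion was 8.42-fold lower than wild type (log2 change -3.08, adjusted p = 1.25e-05).

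The gene with the preceding identifier, PDE_03291, described as a beta-1,3-glucanase, was likewise higher in replicate 2 than in the other libraries of the clrB deletion. It had 37.6, 239 and 54.6 FPKM in the clrB deletion and 44.3, 34.3 and 32.2 in the rcoA deletion, against wild type values of 397, 399 and 391. It was 10.7-fold lower in the rcoA deletion (log2 change -3.40, SE 0.55, limma adjusted p = 0.000532) and was called lower in the clrB deletion as well (3.59-fold, limma adjusted p = 0.0197). The fold in the clrB deletion was 8.58 without replicate 2, and the call was lost without replicate 3 or any of the wild type libraries, at adjusted p of 0.052 to 0.0784. PDE_05223, the third alpha-1,3-glucanase by mean FPKM, had 16.6, 17.6 and 23.4 FPKM in the rcoA deletion, against wild type values of 162, 153 and 137, and its mean was 7.84-fold lower in the deletion (limma adjusted p = 6.34e-06). It was called lower in the clrB deletion too when replicate 2 was left out (log2 change -0.69, adjusted p = 0.00951). PDE_06621 was listed at 0.14, 0.23 and 0.20 FPKM in the rcoA deletion, against wild type values of 3.66, 8.92 and 29.7 (log2 change -3.24, SE 0.92, limma adjusted p = 0.0121), a call lost with a pseudocount of 5. It had 117, 8.63 and 80.1 FPKM in the clrB deletion, with replicate 2 inside the wild type range, and was called higher there without that library (log2 change 3.12, adjusted p = 0.00428).

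Beta-1,3-glucanases cut the main glucan of the wall. Of 19 tested genes 5 rose and 3 fell in the clrB deletion (26.3% and 15.8%, where 13.5% and 8.32% of all tested genes did), and 3 rose and 8 fell in the rcoA deletion (15.8% and 42.1%, where 30.4% and 34.1% did). Leaving out clrB deletion replicate 2 gave 8 that rose and 5 that fell in the clrB deletion (24.2% and 13.4% of all genes), and 3 that rose and 11 that fell with rcoA deleted (33.0% and 37.3% of all genes). PDE_03112, an exo-beta-1,3-glucanase, had 3173, 3049 and 2825 FPKM in the rcoA deletion, against wild type values of 479, 392 and 399, and its mean was 7.12-fold higher in the deletion (log2 change 2.83, SE 0.12, limma adjusted p = 1.99e-07). It had 579, 590 and 615 FPKM in the clrB deletion, 1.40-fold above wild type (limma adjusted p = 0.0229), a call that was lost without clrB deletion replicate 3 or wild type replicate 2 or 3, at adjusted p of 0.0731 to 0.0945. PDE_09267, which carries both a glucan 1,3-beta-glucosidase and an endo-beta-1,4-glucanase description, was 2.68-fold higher in the rcoA deletion, with 81.9 to 94.7 FPKM against 25.0 to 38.8 in wild type (limma adjusted p = 0.00112).

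The beta-1,3-glucanases PDE_02800 and PDE_06124 rose in the clrB deletion and fell in the rcoA deletion. PDE_02800 had 37.7, 39.5 and 47.1 FPKM in the clrB deletion and 3.93, 4.82 and 5.6 in the rcoA deletion, against wild type values of 12.8, 16.4 and 18.8. It was 2.58-fold higher in the clrB deletion (limma adjusted p = 0.00125) and 3.35-fold lower in the rcoA deletion (limma adjusted p = 3.8e-05), and the deletions differed 8.66-fold (log2 change 2.88, SE 0.16, limma adjusted p = 1.09e-06). PDE_06124 had 1690, 1503 and 1529 FPKM in the clrB deletion and 656, 532 and 410 in the rcoA deletion, against wild type values of 885, 922 and 841. It was 1.78-fold higher in the clrB deletion (limma adjusted p = 0.0112) and 1.66-fold lower in the rcoA deletion (limma adjusted p = 0.00362). All 3 replicates of the clrB deletion lay above wild type for these 2 genes, and each of the 6 comparisons with wild type and between the deletions kept its call in every alternative setting run. PDE_00310 was 7.73-fold lower in the rcoA deletion, with 5.62 to 6.45 FPKM against 43.4 to 53.3 in wild type (limma adjusted p = 4.71e-05). In the clrB deletion it had 21.0, 53.2 and 21.6 FPKM and was not called (limma adjusted p = 0.124), and without replicate 2 it was called 2.24-fold lower (log2 change -1.12, adjusted p = 0.000159).

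The next 3 beta-1,3-glucanases were higher in clrB deletion replicates 1 and 3 than in any other library. PDE_08139, an exo-beta-1,3-glucanase, had 1163, 225 and 1472 FPKM in the clrB deletion and 29.9, 49.8 and 86.2 in the rcoA deletion, against wild type values of 136, 235 and 560. It was not called in the clrB deletion against wild type (limma adjusted p = 0.18), was called 4.25-fold higher there without replicate 2 (log2 change 2.32, adjusted p = 0.0111), and was 17.2-fold higher in the clrB deletion than in the rcoA deletion (limma adjusted p = 0.00198). Its fall in the rcoA deletion against wild type, 5.61-fold (limma adjusted p = 0.021), was lost without rcoA deletion replicate 1 or 2 or wild type replicate 3, at adjusted p of 0.0528 to 0.079. PDE_05515 had 1345, 194 and 1301 FPKM in the clrB deletion and 55.2, 56.4 and 52.2 in the rcoA deletion, against wild type values of 74.1, 142 and 352. Neither of its comparisons with wild type was called over the 9 libraries, with limma adjusted p of 0.0686 in the clrB deletion, and 0.11 with rcoA deleted. Both were called without clrB deletion replicate 2, 6.98-fold higher in the clrB deletion (adjusted p = 0.0016) and lower in the rcoA deletion (log2 change -1.49, adjusted p = 0.0127). PDE_08250 had 32.3, 4.95 and 30.7 FPKM in the clrB deletion, against 2.58, 2.5 and 2.09 in wild type, 9.47-fold higher (log2 change 2.45, SE 0.56, limma adjusted p = 0.017). Its call was lost without clrB deletion replicate 3 or wild type replicate 1 or 2, at adjusted p of 0.0512 to 0.0684. It was called lower in the rcoA deletion without clrB deletion replicate 2 (log2 change -0.85, adjusted p = 0.000278). The KEGG text of PDE_08250 also names serine palmitoyltransferase, so its label is mixed like that of PDE_06441.

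The pattern of clrB deletion replicate 2 ran through a set of cell wall genes. Replicates 1 and 3 were both over 2-fold above replicate 2 in 10 of the 80 tested genes (12.5%), where 3.69% of all tested genes were, and both over 2-fold below it in 7 (8.75%), where 3.66% were. These 17 genes are 7 chitinases, 7 beta-1,3-glucanases, 2 alpha-1,3-glucanases and 1 galactanase, and no synthase or transferase is among them. They are described over 3 libraries, with no test. A list of 4 genes of asexual development was measured beside them. Its summed level was 83.9 to 355 FPKM in the clrB deletion, 13.8 to 14.5 in the rcoA deletion and 59.0 to 91.5 in wild type. The regulator of conidiation BrlA (PDE_00087) had 149, 33.4 and 121 FPKM in the clrB deletion, 13.0, 12.4 and 13.7 with rcoA deleted, and 18.2, 27.9 and 28.5 in wild type. The scytalone dehydratase PDE_04496, of the pathway to spore melanin, had 200, 45 and 152 FPKM in the clrB deletion, 0.54, 0.45 and 0.45 with rcoA deleted, and 36.5, 56.2 and 43.4 in wild type. A second scytalone dehydratase, PDE_09236, did not share that pattern. It had 4.69, 5.32 and 5.97 FPKM in the clrB deletion, inside the wild type range of 2.79 to 6.92, with replicate 2 between the others. It was listed at 0 in all rcoA deletion libraries. The second gene described as BrlA, PDE_00079, had 1.57 FPKM at most and was under the filter. The part of asexual development in the levels of the cell wall genes was not tested.

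**Figure D4:**
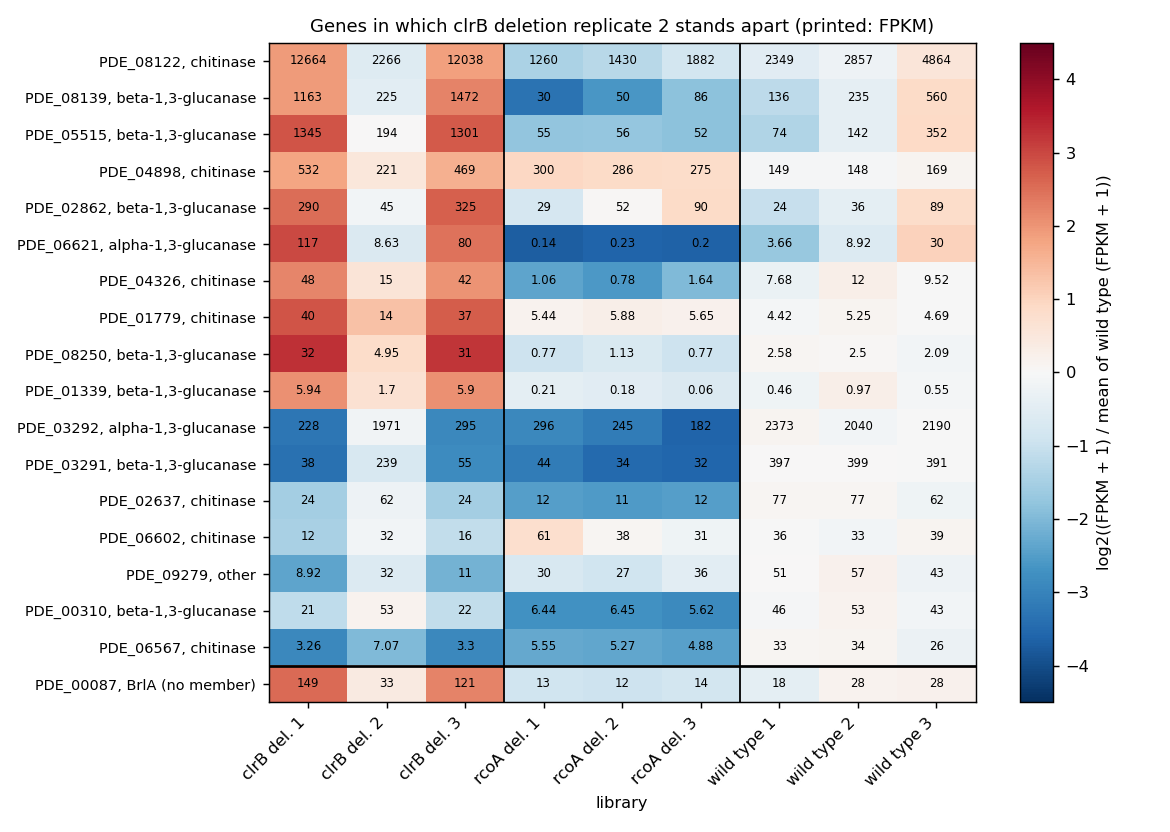
Levels of the 17 tested cell wall genes in which clrB deletion replicates 1 and 3 were both over 2-fold above or below replicate 2, and of BrlA for reference, in the 9 libraries. The numbers are FPKM and the colour is the log2 ratio of FPKM + 1 to the wild type mean; in the first 10 genes replicates 1 and 3 are redder than replicate 2, and in the next 7 they are bluer.

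The 7 remaining genes carry the word beta-1,3 in descriptions of galactanases, a mannanase, sugar transferases and glucan hydrolases of mixed linkage. PDE_01468, an exo-beta-1,3-galactanase, had 0.09, 0.15 and 0.03 FPKM in the clrB deletion and 2.53, 3.88 and 6.81 in the rcoA deletion, against wild type values of 33.8, 37.8 and 28.8. It showed the largest fall of the 80 tested genes in the clrB deletion (log2 change -4.98, SE 0.25, limma adjusted p = 5.91e-06) and was 7.6-fold lower in the rcoA deletion (limma adjusted p = 1.76e-05). Its level differed between the deletions too (log2 change -2.23, SE 0.25, limma adjusted p = 7.43e-05). A second galactanase, PDE_09279, had 8.92, 32.2 and 10.9 FPKM in the clrB deletion, against 50.8, 57.5 and 42.8 in wild type, 2.90-fold lower (limma adjusted p = 0.0169). Its fold was 5.08 without clrB deletion replicate 2, and the call was lost without replicate 3 or wild type replicate 1 or 2, at adjusted p of 0.0579 to 0.0691. It was called lower in the rcoA deletion without clrB deletion replicate 2 (log2 change -0.69, adjusted p = 0.00182). Galactanases of this kind cut plant polysaccharides such as arabinogalactan.

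PDE_06879, described as a beta-1,3-galactosyltransferase and as a tripeptidyl peptidase, had 110, 67.8 and 108 FPKM in the clrB deletion and 6.75, 5.74 and 7.77 in the rcoA deletion, against wild type values of 44.4, 56.6 and 52.9. It was 1.86-fold higher in the clrB deletion (limma adjusted p = 0.0166) and 7.59-fold lower in the rcoA deletion (limma adjusted p = 3.31e-06). The rise was lost without clrB deletion replicate 3 or wild type replicate 1, at adjusted p of 0.0696 and 0.0641. PDE_03199, described as a mannanase, was 5.31-fold higher in the rcoA deletion, with 17.2, 16.9 and 21.6 FPKM against 3.48, 3.40 and 3.61 in wild type (limma adjusted p = 9.49e-07).

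Chitin cut by chitinases ends as N-acetylglucosamine, which hexosaminidases release and further enzymes bring into sugar metabolism. Of 6 genes of this path, found by description and not among the 92, 3 rose and 0 fell in each deletion, and limma called 0 of the 6 between the deletions, where 0 had an unadjusted p under 0.05. Of all tested genes 13.5% rose with clrB deleted and 30.4% with rcoA deleted. Between the deletions 35.2% of all tested genes were higher with clrB deleted and 24.9% were lower. Without clrB deletion replicate 2, 4 of the 6 rose in the clrB deletion, where 24.2% of all genes did. PDE_00969, the glucosamine-6-phosphate deaminase, had 232, 88.4 and 166 FPKM in the clrB deletion and 166, 191 and 311 in the rcoA deletion, against wild type values of 33.9, 35.1 and 54.7. It was 3.94-fold higher in the clrB deletion and 5.41-fold higher in the rcoA deletion, with limma adjusted p of 0.00946 and 0.000372. PDE_00965, the N-acetylglucosamine-6-phosphate deacetylase, was 3.72-fold higher in the clrB deletion and 4.20-fold higher in the rcoA deletion, with limma adjusted p of 0.0146 and 0.00137. The hexosaminidase PDE_00970, whose identifier follows that of the deaminase, was 1.48-fold and 1.72-fold higher in the clrB and rcoA deletions, with limma adjusted p of 0.0165 and 0.000614. The rise of PDE_00965 in the clrB deletion was lost without its replicate 3 or wild type replicate 1 or 2, and that of PDE_00970 without clrB deletion replicate 3 or wild type replicate 1, at adjusted p of 0.0513 to 0.0604. In each of these 3 genes, which are the called ones, all libraries of both deletions lay above all wild type libraries. How many of all tested genes did so was not counted.

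**Figure D5:**
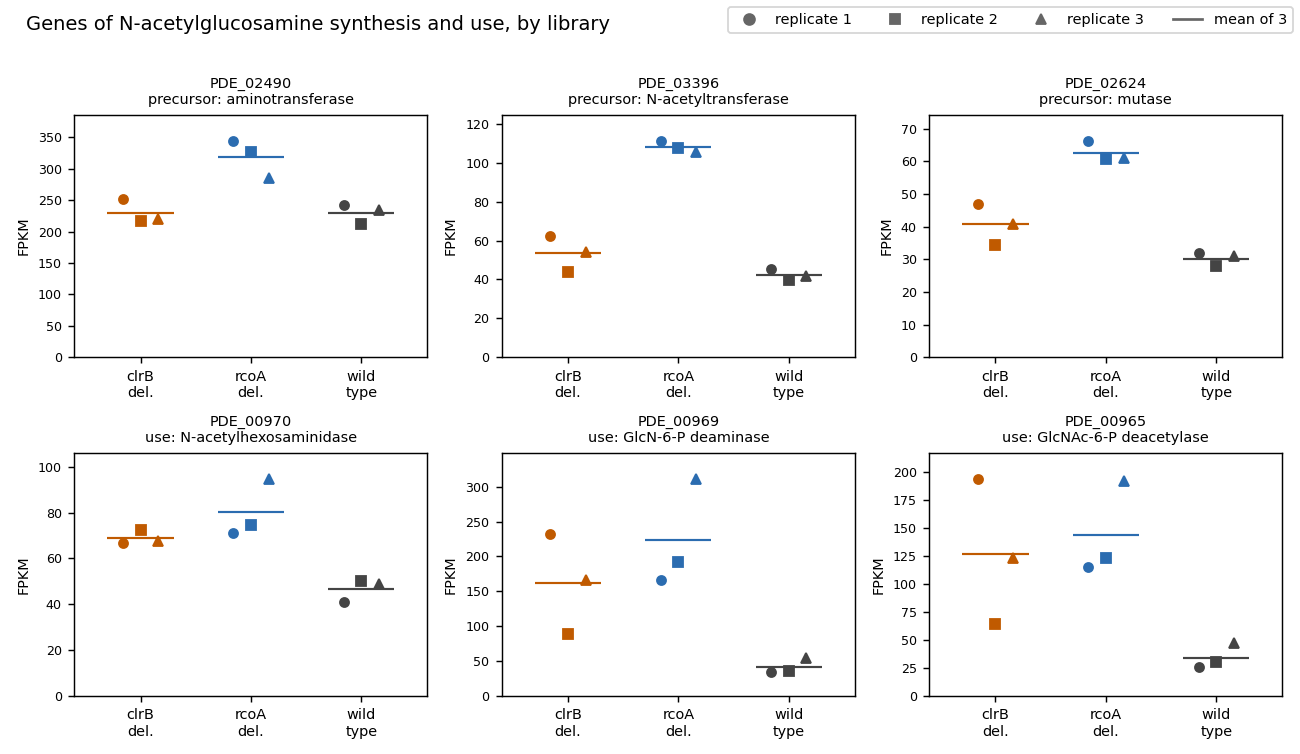
FPKM (y axis, from 0) of the 3 genes of chitin precursor synthesis (top) and of the 3 called genes of N-acetylglucosamine use (bottom) in each library, laid out as for the synthases. The top genes are highest in the rcoA deletion, and the bottom genes are lowest in wild type.

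Some of the genes have in common features that the word search did not read. Of the 92 identifiers, 12 form 6 pairs of consecutive numbers, among them the pairs PDE_03291 with PDE_03292, PDE_06566 with PDE_06567 and PDE_08661 with PDE_08662. No expected number of such pairs was computed. In the deposited gene ontology columns, 5 of the 92 genes carried acetylglucosaminyltransferase activity, of 7 such genes in the whole table, and 11 carried hydrolase activity on glycosyl bonds, of 59. These terms name the same kinds of enzyme as the search words, so they are not independent of the search.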

How the data were processed

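The authors deposited 1 table of FPKM values for 9907 genes, to 2 decimals, beside KEGG, nr and gene ontology descriptions. Short tags, cut with NlaIII and MmeI from cDNA of oligo(dT)-bound RNA, were sequenced, per the labels' protocols. The sources used here do not give the aligner, the gene lengths, the build or how FPKM was computed. Tags come from a fixed site of a transcript, so dividing by length may misplace genes relative to each other, while ratios for the same gene are not affected. Near-identical copies may share tags. A further 3 columns of per-library values belong to no sample in the labels and were not analysed here.

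Total depth is unknown, since no counts were used. The FPKM of a library summed to 776855 to 820648. Ratios of low values (0.1 to 0.5 FPKM) to those of wild type replicate 1 were most often 1 in every library. Outside wild type replicate 1 itself, that commonest ratio held for 21 to 44 of 260 to 305 genes per library. It therefore does not fix relative depth.

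Values were taken as log2(FPKM + 1) for the 9097 genes with a mean of at least 1, and a limma model (limma 3.58.1, R 4.3.3) gave each strain 1 mean over the 9 libraries, with an intensity trend. Tests were two-sided and adjusted by Benjamini-Hochberg over all genes tested. Tables and plots were made with pandas 2.3.3 and matplotlib 3.10.9. On simulated data, 86% of 2-fold and 96% of 4-fold changes were recovered, with 15 false calls, for the clrB deletion against wild type. The simulation drew independent noise for each gene, with the same spread in every strain. It held no library that stood apart as clrB deletion replicate 2 does, so this recovery does not carry over to the measured libraries. Alternatives were 18 in number: pseudocounts of 0.1 and 5, no filter, a mean of at least 5, median of ratios scaling, quantile normalization, no intensity trend, a replicate block, only the 2 strains compared, and leaving out each of the 9 libraries.

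Role classes came from word patterns, each gene entering the first it matched. The glucanosyltransglycosylases fell outside these patterns and were separated afterwards. In each comparison the named genes were the 6 largest rises and 6 largest falls among called genes whose libraries did not overlap, averaging 10 FPKM or more in either strain. Added were the most abundant genes of each class, every synthase, genes under the filter, and the most abundant called gene of each further list. Other genes were named after their values were seen: PDE_00401, PDE_00615, PDE_01690, PDE_02637, PDE_03055, PDE_03452, PDE_03698, PDE_07861, PDE_09267, PDE_03396, PDE_00965, PDE_00970, PDE_09236, PDE_00079, PDE_01014, PDE_02573, PDE_07498 and PDE_09373. The 92 genes and the 4 further lists were chosen with earlier results of these data known. The species' reference table lists 9964 genes, and 0 of the 9907 deposited identifiers occur in it, so no coordinates or sequences are given.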

Additional observations from a re-analysis of the deposited data

How the results depend on the processing

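No named cell wall gene that was called changed sign under the 18 alternatives. The counts of called cell wall genes stayed within 1.5 times the reported count in the rcoA deletion against wild type and in the clrB deletion against the rcoA deletion. Leaving out 1 library, the clrB deletion against wild type gave 5 to 23 that rose and 6 to 22 that fell, where 14 and 13 were reported; the cause was not tested. Of 27 genes called in that comparison, 10 kept their call in every alternative, against 41 of 52 for the rcoA deletion against wild type and 43 of 53 for the clrB deletion against the rcoA deletion. Scaling turned the balance of calls. Of the cell wall genes called in the clrB deletion 51.9% rose, against 42.3% with median of ratios scaling and 44.4% with quantile normalization. Of all genes called in the rcoA deletion 47.1% rose, against 54% with quantile normalization. Quantile normalization moved the median log2 change of all genes between the clrB and rcoA deletions to -0.05, where it was 0.11. The labels do not say whether same-numbered libraries were paired. Their deviations from the strain means correlated at -0.161 to 0.341, highest for replicate 3 of the clrB deletion and wild type, which does not settle it. With the replicate block, 12 rose and 12 fell in the clrB deletion, 16 rose and 38 fell in the rcoA deletion, and between the deletions 35 genes were higher and 20 lower with clrB deleted. Depth is unknown, so the precision of values near or under 1 FPKM cannot be given.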

Other observations

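Transcripts were also measured for 9 genes described as sensors, exchange factors, kinases or transcription factors of the cell wall integrity pathway. In the clrB deletion 2 rose and 1 fell, where 13.5% and 8.32% of all tested genes did, and in the rcoA deletion 4 rose and 0 fell, where 30.4% and 34.1% did. Of these 7 calls 4 were lost on leaving out single libraries. PDE_07498, a protein kinase C, in the clrB deletion was lost on leaving out any 1 library other than clrB deletion replicate 1 or 2, at adjusted p of 0.0523 to 0.155. PDE_09373, a stress sensor, in the clrB deletion was lost without clrB deletion replicate 1 or 3, rcoA deletion replicate 2 or any of wild type, at 0.0634 to 0.133. In the rcoA deletion PDE_01796 was lost without replicate 2 or 3 or any of wild type, at 0.0613 to 0.102, and PDE_02573 without replicate 2 or 3 or wild type replicate 1, at 0.0833 to 0.0944. The 9 genes' summed level was 983 to 1034 FPKM in the clrB deletion and 931 to 1019 in the rcoA deletion, against 749 to 760 in wild type. PDE_01796, a stress sensor gene, had 418, 373 and 448 FPKM in the clrB deletion, against 211, 211 and 201 in wild type, 1.99-fold higher (limma adjusted p = 0.000434), and of the 9 genes it had the largest difference in FPKM between the clrB deletion and wild type. PDE_08278, another gene with that description, was 1.53-fold higher in the rcoA deletion, with 432 to 504 FPKM against 286 to 326 in wild type (limma adjusted p = 0.000772). At a far lower level PDE_01014, described as the transcription factor RLM1, was also called higher in the rcoA deletion. It had 4.92, 4.79 and 4.90 FPKM there, against 0.69, 0.65 and 0.80 in wild type, and kept that call in all 17 alternatives run for it.

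The 12 cell wall genes under the filter include 2 chitin synthases, PDE_00702 and PDE_09407, and the second alpha-1,3-glucan synthase, PDE_03103, whose mean over the 9 libraries was 0.56 FPKM. They also include the chitin glucanosyltransferase PDE_07531, the chitinases PDE_04445, PDE_05249, PDE_06410 and PDE_07642, the beta-1,3-glucanase PDE_07643, the alpha-1,3-glucanases PDE_04381 and PDE_10011, and PDE_04394. PDE_06410 and PDE_04394 were listed at 0 in all 9 libraries. PDE_05249 had the highest mean among the 12, at 0.90 FPKM.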
